A study of Mus musculus with 12 samples.

Results

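Brain endothelial and barrier genes were examined in the hippocampus after viral knockdown of Hp1bp3. The genes are Cldn5, Pecam1, Flt1, Cdh5, Slc2a1, Abcb1a, Mfsd2a, Ly6c1, Ly6a and Vwf, chosen by name as genes that endothelial cells of brain vessels are known to express. All 10 were found among the 22236 genes measured, and all 10 passed the filter on low counts. The animals were males of 3 to 5 months of the strains C57BL/6J (called B6) and DBA/2J (called D2), given AAV9 vectors in the hippocampus of both sides. The vector coded for a short hairpin RNA against Hp1bp3 (KD, AAV9-shRNA-Hp1bp3) or a scrambled hairpin (Ctrl, AAV9-scrmb-shRNA), and tissue was taken at least 6 weeks later. Each of the 4 groups (B6 Ctrl, B6 KD, D2 Ctrl and D2 KD) held 3 mice, which gave 12 mRNA libraries. Every mouse had been injected with a virus, so no group shows the vessels of an untouched hippocampus. The dissected hippocampus was sequenced whole, so fewer endothelial cells and less RNA per endothelial cell cannot be told apart.

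The endothelial cells of brain capillaries form the blood-brain barrier. Tight junctions seal the clefts between neighbouring cells, few vesicles cross the cell, and dedicated transporters let nutrients in and pump foreign compounds out. VEGF signalling through receptors on these cells guides vessel growth, while Wnt ligands from neural cells maintain the barrier program, and inflamed endothelium exposes adhesion molecules for white blood cells.

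Among the genes studied, Cldn5 codes for the main claudin of the brain tight junction and Cdh5 for VE-cadherin of the adherens junction. Pecam1 codes for the adhesion molecule CD31. Slc2a1 codes for the glucose carrier GLUT1, Abcb1a for the efflux pump P-glycoprotein, and Mfsd2a for a lipid carrier that holds vesicle transport low. Flt1 codes for VEGF receptor 1, Vwf for the clotting protein von Willebrand factor, and Ly6c1 and Ly6a for small membrane-anchored proteins, the latter known as Sca-1. Ly6a and Ly6c1 are also known to respond to interferon and are found on some blood cells. By GENCODE vM21 annotation (GRCm38), all 10 are protein-coding genes, and Ly6a (chr15:74994877-74998031) and Ly6c1 (chr15:75044018-75048830) lie near each other on the minus strand of chromosome 15.

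The 250 bases before the transcription start were available for 6 of the 10 genes from RefSeq (GRCm38.p6). Those of Cldn5, Flt1 and Ly6c1 are shown because Flt1 differed between the strains, Cldn5 and Ly6c1 did not overlap between the B6 groups, and their starts lie within 7 bases of the annotated one. Each is written 5′ to 3′ on the strand of the gene, with capitals marking AGGAAGT, a sequence that ETS factors of endothelial cells can bind.
Cldn5, chr16:18776597-18776846 (+ strand): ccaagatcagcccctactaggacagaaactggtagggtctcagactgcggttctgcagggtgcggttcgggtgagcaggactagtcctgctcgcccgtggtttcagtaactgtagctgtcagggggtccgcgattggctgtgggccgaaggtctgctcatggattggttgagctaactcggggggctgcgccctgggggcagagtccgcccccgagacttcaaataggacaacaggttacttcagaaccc
Flt1, chr5:147726012-147726261 (− strand): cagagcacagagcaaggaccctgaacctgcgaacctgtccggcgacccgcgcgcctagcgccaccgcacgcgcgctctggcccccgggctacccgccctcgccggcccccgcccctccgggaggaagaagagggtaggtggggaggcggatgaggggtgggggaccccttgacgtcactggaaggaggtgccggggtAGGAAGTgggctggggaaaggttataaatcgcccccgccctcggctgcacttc
Ly6c1, chr15:75048838-75049087 (− strand): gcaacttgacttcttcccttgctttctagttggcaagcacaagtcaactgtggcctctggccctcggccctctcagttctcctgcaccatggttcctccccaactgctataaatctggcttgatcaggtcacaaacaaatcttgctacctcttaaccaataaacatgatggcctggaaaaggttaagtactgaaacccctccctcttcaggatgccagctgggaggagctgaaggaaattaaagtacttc
AGGAAGT was found once before the start of Flt1 and not in the windows shown for Cldn5 and Ly6c1, when both strands were searched, and 7.69% of the 32851 RefSeq windows of this length held it. The table gives Ly6c1 another start, 167 bases from the annotated one, and the window before that start held AGGAAGT once. The interferon-stimulated element GAAANNGAAA (2.98% of windows) and the interferon-gamma element TTCNNNGAA (7.02% of windows) matched none of the windows of the 6 genes. Pecam1, Cdh5, Ly6a and Vwf had no entry in the table used.

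Library totals ran from 18213084 to 39420219 expected counts, and the members' expected counts from 308 to 5250 per library. Levels are given as the normalised counts deposited with the series, in which each library is divided by 1 size factor. Hp1bp3 itself, the target, was at 9372, 8826 and 9348 in B6 Ctrl against 5539, 5429 and 7633 in B6 KD. In D2 it was at 6871, 6504 and 7002 in Ctrl against 5337, 4878 and 6941 in KD. The library labelled D2 KD 3 thus lay within the D2 Ctrl values, and the D2 estimates are given with and without it. The knockdown of Hp1bp3 was -0.54 ± 0.15 (log2, SE) in B6 (edgeR adjusted p = 0.0760) and -0.25 ± 0.15 in D2 (edgeR adjusted p = 1), or -0.41 in D2 without that library (edgeR adjusted p = 0.556). By DESeq2 the B6 estimate of Hp1bp3 was -0.57 (adjusted p = 0.00825), in a fit in which 10.6% of all genes had an adjusted p below 0.05. By edgeR its B6 adjusted p was below 0.05 in 2 of the 12 fits that left out a library. The libraries also differed in choroid plexus, the secretory epithelium that borders the hippocampus. Its marker Ttr was between 72291 and 137514 in 7 libraries (B6 Ctrl 2, B6 KD 2, B6 KD 3, D2 Ctrl 2, D2 Ctrl 3, D2 KD 1 and the library labelled D2 KD 3) and between 806 and 4226 in the other 5.

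In B6 Ctrl, on the scale of normalised counts per kilobase of exon, the highest level was that of Slc2a1, 734 ± 69.0 (SD, n = 3). Cldn5 followed at 624 ± 99.4, then Ly6c1 at 451 ± 56.0 and Ly6a at 366 ± 74.5. Slc2a1 and Cldn5 overlapped (664 to 802 and 539 to 733), as did Ly6c1 and Ly6a (386 to 488 and 282 to 424), so the order within each pair is not settled by these libraries. Below them came Mfsd2a at 232 ± 47.6, Flt1 at 209 ± 15.6 and Abcb1a at 206 ± 29.3, whose ranges overlapped one another. The highest Mfsd2a value (286) also passed the lowest Ly6a value (282). Cdh5 at 128 ± 37.2, Pecam1 at 115 ± 21.5 and Vwf at 79.1 ± 35.9 formed the lower end, again with overlapping ranges. In D2 Ctrl, Cldn5 stood first at 807 ± 117 and Vwf last at 49.2 ± 11.5, with Ly6a at 580 ± 65.1 and Ly6c1 at 517 ± 50.2. Cldn5 there overlapped Slc2a1 (680 to 911 and 665 to 798), and Ly6a overlapped Ly6c1 (523 to 651 and 459 to 546), so neither order is settled. The defining endothelial products of junction, glucose carrier and adhesion molecule were therefore all measured in all 12 libraries.

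**Figure D1:**
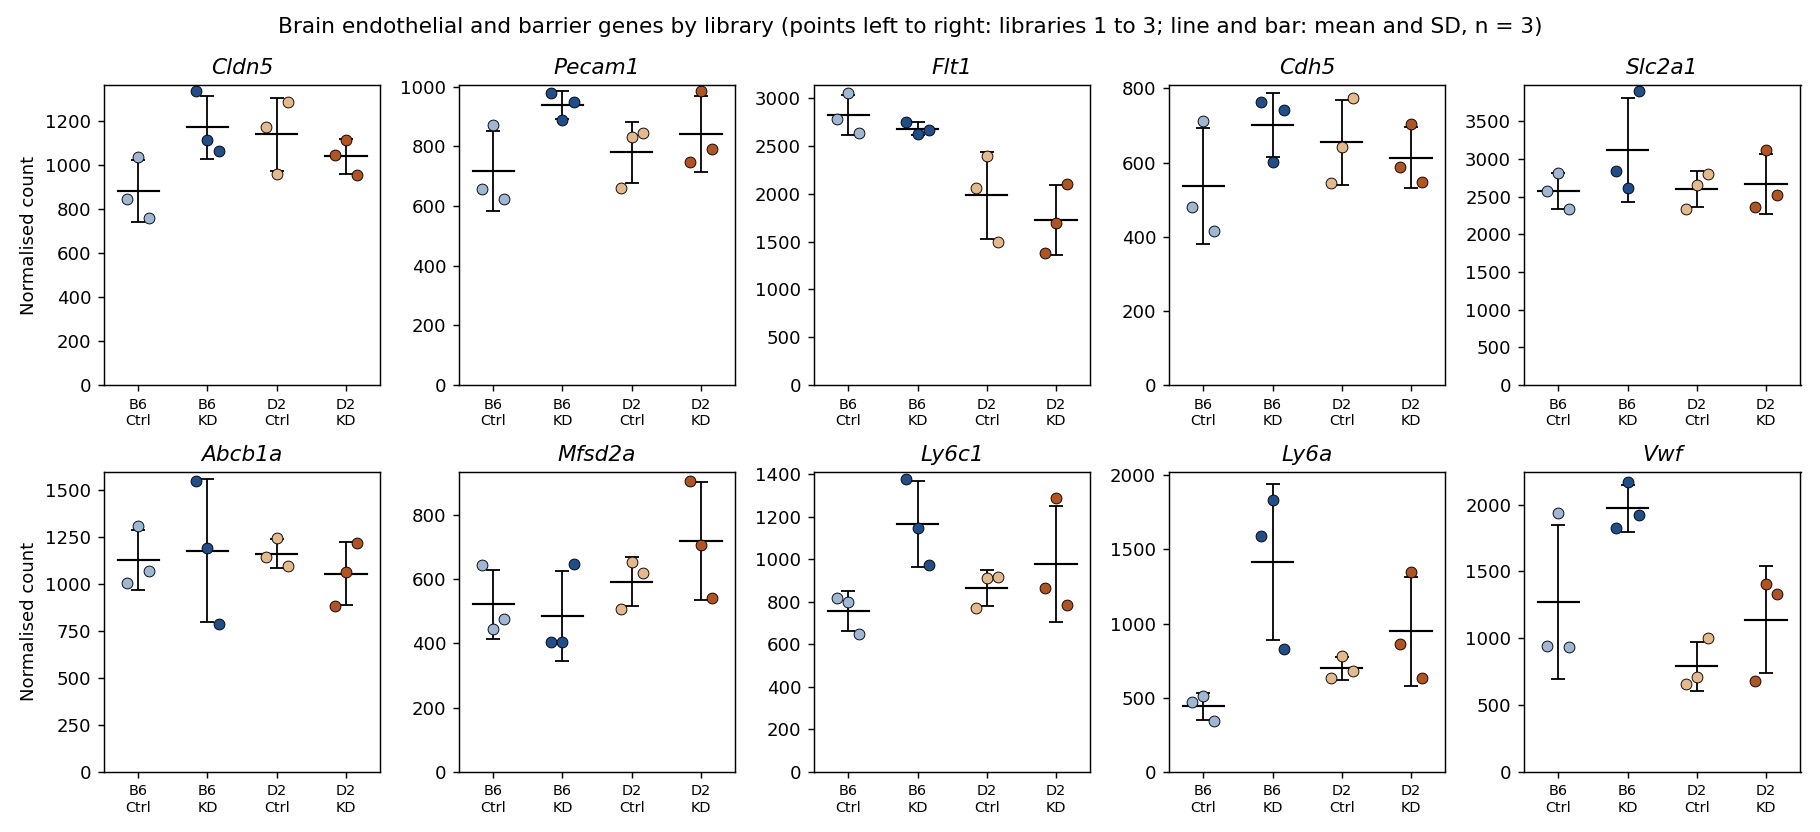
Normalised counts (vertical axes, starting at 0) of the 10 endothelial and barrier genes in each library of B6 Ctrl, B6 KD, D2 Ctrl and D2 KD. Points are libraries 1 to 3 from left to right, and the line and bar are the mean and SD (n = 3). The B6 KD points of Cldn5, Pecam1, Ly6c1 and Ly6a all lie above the B6 Ctrl points, the D2 KD points of every gene overlap the D2 Ctrl points, and all 6 D2 points of Flt1 lie below all 6 B6 points.

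The first comparison asked whether the vessels' transcripts differed between knockdown and control in B6. Ly6a was the 1 member of 10 that passed the test there, and no member fell. Of all 15854 genes tested, 2.64% were called in this comparison (1.76% higher in KD), by an edgeR adjusted p below 0.05. The median log2 fold change of the 10 genes was 0.41, against 0.0025 over all genes tested, and 8 of 10 estimates were above 0, as were 50.4% of those of all genes.

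Ly6a stood at 474, 510 and 340 normalised counts in the 3 B6 Ctrl libraries. In B6 KD it stood at 1593, 1835 and 825. Every KD library exceeded every control library, and B6 KD 3, the KD library with the highest Hp1bp3, had the lowest Ly6a of the 3. The mean rose 3.21-fold from 441 ± 89.7 to 1418 ± 527 (SD, n = 3), with a log2 fold change of 1.70 ± 0.32 (SE, edgeR adjusted p = 0.0364). The call was kept without B6 KD 3, D2 Ctrl 3, D2 KD 2 or the library labelled D2 KD 3, and lost without any other library. The edgeR adjusted p was 0.178 without B6 Ctrl 1, 0.0533 without B6 Ctrl 2, 0.125 without B6 Ctrl 3, 0.0784 without B6 KD 1 and 0.104 without B6 KD 2. It was 0.0579 without D2 Ctrl 1, 0.0547 without D2 Ctrl 2 and 0.0534 without D2 KD 1, libraries that enter through the shared estimate of the spread. With the choroid plexus score as a covariate the edgeR adjusted p was 0.0582, and with the total count it was 0.0601. Under either covariate 0 of all 15854 genes were called in B6. The log2 fold change itself stayed between 1.46 and 1.95 in all of these fits, and DESeq2 gave 1.68 (adjusted p = 2.7e-05).

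Ly6c1 was at 818, 801 and 648 in B6 Ctrl and at 1377, 1148 and 976 in B6 KD. The groups did not overlap, and the log2 fold change was 0.65 ± 0.19 (SE, edgeR adjusted p = 0.0902). DESeq2 called it (adjusted p = 0.0291), in a fit in which 10.6% of all genes were called, and so did edgeR without D2 KD 2 (adjusted p = 0.0456). Ly6c1 and Ly6c2 are near-identical copies whose shared reads the counting had to divide. The expected count of Ly6c1 was fractional in 6 B6 and 5 D2 libraries, so its values are uncertain to that extent. Ly6a had a fractional count in 5 B6 libraries and 1 D2 library.

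The junction and adhesion genes had positive estimates in B6 that did not pass the test. Cldn5 was at 849, 1038 and 763 in B6 Ctrl and at 1337, 1116 and 1067 in B6 KD, with no overlap, although the highest control and the lowest KD library were close. Its log2 fold change was 0.43 ± 0.14 (edgeR adjusted p = 0.122). Pecam1 was at 658, 870 and 622 in Ctrl and at 978, 887 and 949 in KD, again with no overlap and with 0.41 ± 0.16 (edgeR adjusted p = 0.166). The expected counts of Pecam1 were fractional in 6 B6 libraries and 0 D2 libraries, so part of its B6 reads was divided with another gene model. Cdh5 was at 480, 713 and 416 in Ctrl and at 762, 602 and 741 in KD. Its groups overlapped, with 0.41 ± 0.21 (edgeR adjusted p = 0.286). Thus 4 of the 10 genes had all B6 KD libraries above all B6 Ctrl libraries, while 12.6% of 15829 genes did so. The summed choroid plexus markers ranged from 7889 to 128173 in B6 Ctrl and from 12974 to 229928 in B6 KD, and their part in these values was not tested. B6 KD 1, with a choroid plexus sum of 12974, held the highest Cldn5, Pecam1, Cdh5 and Ly6c1 values of the 12 libraries except for Pecam1 in D2 KD 2 and Cdh5 in D2 Ctrl 3.

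The transporters showed smaller differences in B6. Slc2a1 was at 2576, 2813 and 2329 in Ctrl and at 2836, 2610 and 3900 in KD, where B6 KD 3 alone stood far above the others, and the log2 fold change was 0.30 ± 0.16. Abcb1a was at 1009, 1313 and 1072 in Ctrl and spread from 788 to 1553 in KD, with 0.08 ± 0.21. Abcb1a had a fractional count in 6 B6 and 5 D2 libraries, so part of its reads was divided with another gene model. Mfsd2a was at 644, 445 and 475 in Ctrl and at 403, 403 and 646 in KD, with -0.08 ± 0.24. The efflux pump and the lipid carrier had estimates near 0, whose sign changed when single libraries were left out.

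Flt1, the VEGF receptor, was at 2776, 3052 and 2639 in B6 Ctrl and at 2749, 2619 and 2667 in B6 KD. The values overlapped and the log2 fold change was -0.05 ± 0.17. Vwf was at 939, 1936 and 937 in B6 Ctrl and at 1828, 2169 and 1920 in B6 KD. A single control library, B6 Ctrl 2, reached the KD level, and with it the log2 fold change was 0.66 ± 0.33 (edgeR adjusted p = 0.283). Without B6 Ctrl 2 it was 1.07 (edgeR adjusted p = 0.0774), and it was 0.45 without B6 Ctrl 1 (edgeR adjusted p = 0.594). B6 Ctrl 2 was the highest control for 8 of the 10 genes. Markers of other vessel-wall cells were high in the same library: Acta2, an actin of smooth muscle, was at 1228 there against 489 and 344 in the other controls, and the summed perivascular fibroblast markers were at 10524 against 4872 and 4290. The part of these cells in the result was not tested. Vwf was also high in B6 KD 1, where Acta2 was at 334.

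In D2, none of the 10 genes passed the test, and none had KD libraries separated from Ctrl libraries. No gene at all was called by edgeR in D2 (0%), with 452 at an unadjusted p under 0.05, against 1 called by DESeq2 and 0 by limma-voom, while 2.99% of genes had all D2 KD libraries above all D2 Ctrl libraries and 3.06% had them below. Without the library labelled D2 KD 3, 1236 genes were at an unadjusted p under 0.05 and 1 was called, which was none of the 10. The median log2 fold change of the 10 genes was 0.08, against 0.0041 over all genes.

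Ly6a was at 630, 785 and 683 in D2 Ctrl and at 862, 1348 and 631 in D2 KD. The low value belonged to the library labelled D2 KD 3, and the other 2 KD libraries stood above all controls. Its log2 fold change was 0.44 ± 0.32 with all libraries and 0.67 without that library (edgeR adjusted p = 1 and 0.647). Without D2 KD 2, the library with the highest Ly6a, it was 0.10 (edgeR adjusted p = 1). Ly6c1 was at 769, 915 and 915 in Ctrl and at 863, 1288 and 783 in KD (0.18 ± 0.19). D2 KD 2 was the highest KD library for 7 of the 10 genes, Ly6a and Ly6c1 among them, and without it the Ly6c1 estimate was -0.07. Without the library labelled D2 KD 3 the Ly6c1 estimate was 0.32.

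Cldn5 was at 1176, 963 and 1290 in D2 Ctrl and at 1048, 1117 and 957 in D2 KD, with overlapping groups and a log2 fold change of -0.13 ± 0.14. Vwf was at 657, 713 and 1001 in Ctrl and at 682, 1406 and 1330 in KD. Its estimate was 0.53 ± 0.33 with all libraries and 0.41 without the library labelled D2 KD 3, and D2 KD 1 lay among the controls. Mfsd2a was at 506, 653 and 618 in Ctrl and at 907, 706 and 540 in KD (0.28 ± 0.24), and here too the library labelled D2 KD 3 was the lowest. Without that library Mfsd2a and Ly6a were higher and Abcb1a lower in every remaining D2 KD library, while 12.6% of genes were higher and 10.3% lower in this way. Their edgeR adjusted p was 0.676, 0.647 and 0.805, and the estimates of Mfsd2a and Abcb1a were then 0.45 and -0.25. The other estimates in D2 were 0.11 for Pecam1, -0.09 for Cdh5, 0.04 for Slc2a1, -0.14 for Abcb1a and -0.20 for Flt1. Without the library labelled D2 KD 3, Flt1 was at -0.36, Pecam1 at 0.16, Slc2a1 at 0.08, Cldn5 at -0.08 and Cdh5 at -0.01.

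**Figure D2:**
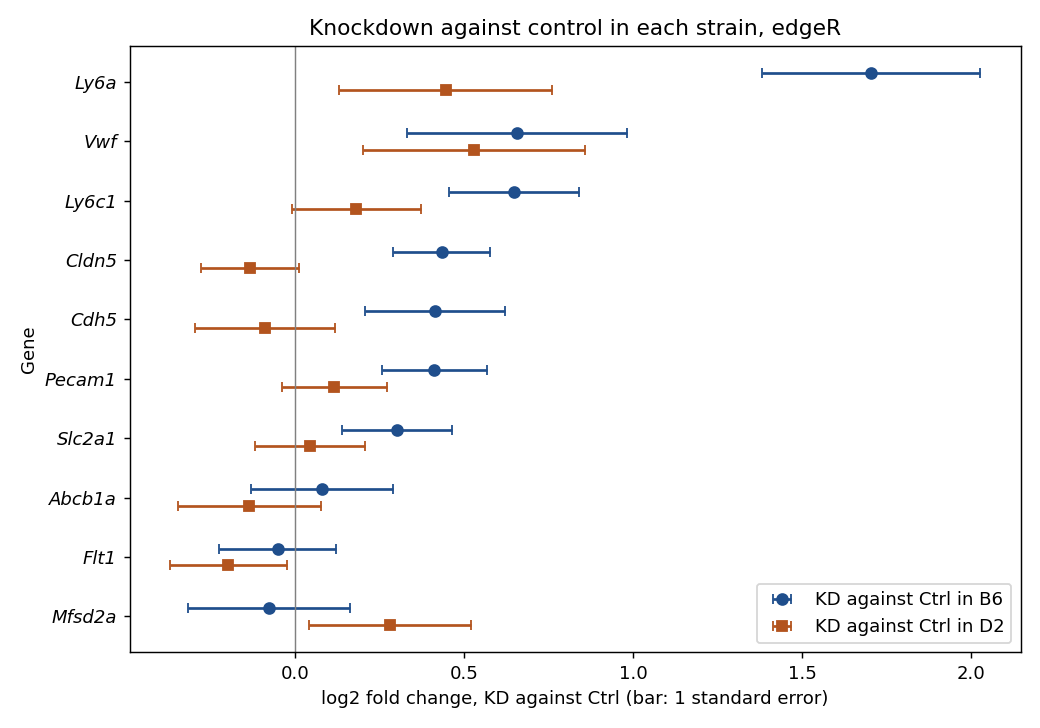
Log2 fold changes of KD against Ctrl (horizontal axis) of the 10 genes in B6 (blue circles) and D2 (orange squares), from edgeR, with bars of 1 standard error. Ly6a in B6, at 1.70, stands apart from the other values, which lie between -0.20 and 0.66.

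Averaged over both strains, 0 of the 10 genes and 0% of all genes were called by edgeR, with 3046 genes at an unadjusted p under 0.05, 1241 called by DESeq2 and 0 by limma-voom. Ly6a had an average log2 fold change of 1.07 ± 0.23 (edgeR adjusted p = 0.0605). It was called by DESeq2 (adjusted p = 0.000363), and by edgeR without B6 KD 3 (0.0225) or without the library labelled D2 KD 3 (0.0193), the KD library of each strain in which Hp1bp3 was highest. Vwf (0.59 ± 0.23), Ly6c1 (0.41 ± 0.14) and Pecam1 (0.26 ± 0.11) followed at edgeR adjusted p of 0.201, 0.142 and 0.228.

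The difference between the strains in their response was tested by the interaction term, in which edgeR called 0% of genes, with 937 at an unadjusted p under 0.05, against 11 called by DESeq2 and 0 by limma-voom. For Ly6a the change in D2 was lower than that in B6 by -1.26 ± 0.45 on the log2 scale, and for Cldn5 by -0.57 ± 0.20, both at an edgeR adjusted p of 0.822. The strains' responses were thus not shown to differ for any of the 10 genes. Within Ctrl, the estimates of D2 against B6 were 0.66 ± 0.32 for Ly6a and 0.37 ± 0.14 for Cldn5 (edgeR adjusted p = 0.248 and 0.133).

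The second comparison asked how the strains differed in these genes. Averaged over treatments, 2 of the 10 passed the test, both lower in D2, while 21.3% of all genes were called. The reads of each mouse were aligned to the genome of its own strain, so a strain difference in a gene model would appear as a difference in count. That share was not tested.

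Flt1 ran from 2619 to 3052 in the 6 B6 libraries with a median of 2708, and from 1376 to 2393 in the 6 D2 libraries with a median of 1878. Every D2 library lay below every B6 library, as for 8.74% of genes. The log2 fold change of D2 against B6 was -0.58 ± 0.12 (SE, edgeR adjusted p = 0.00473), and the call was kept in every fit that left out a library or changed the method. Within Ctrl the estimate was -0.51 ± 0.17 (edgeR adjusted p = 0.0817), where 14% of genes and 0 of the 10 members were called. DESeq2 called Flt1 in Ctrl (adjusted p = 0.0404), as did edgeR without D2 Ctrl 2 (adjusted p = 0.0392). The coefficient of variation of Flt1 was 23.0% in Ctrl and 21.1% in KD for D2, and 7.46% and 2.45% for B6, a contrast that was not tested.

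Vwf ran from 937 to 2169 in B6 with a median of 1874, and from 657 to 1406 in D2 with a median of 857. The strains overlapped through the B6 controls, and the log2 fold change was -0.75 ± 0.23 (SE, edgeR adjusted p = 0.0412). Without B6 Ctrl 2 it was -0.52 (edgeR adjusted p = 0.0871). The adjusted p was also above 0.05 without B6 KD 1 (0.0624), B6 KD 2 (0.0843), B6 KD 3 (0.0617), D2 Ctrl 1 (0.0987), D2 Ctrl 2 (0.0921), D2 KD 1 (0.0694) or the library labelled D2 KD 3 (0.0521). The expected counts of Vwf were fractional in 5 B6 libraries and 0 D2 libraries, so part of its B6 reads was divided with another gene model. The estimate for Mfsd2a was 0.36 ± 0.17 (edgeR adjusted p = 0.177), and without B6 KD 3 it was 0.51 (edgeR adjusted p = 0.0322). The other 7 genes had estimates from -0.12 to 0.09, among them Cldn5 at 0.09 and Ly6a at 0.03.

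Ratios within a library do not depend on its size factor, and were chosen after the values were seen, so they are given with no test. Ly6a to Cldn5 was 0.56, 0.49 and 0.45 in B6 Ctrl and 1.19, 1.64 and 0.77 in B6 KD. In D2 it was 0.54, 0.81 and 0.53 in Ctrl and 0.82, 1.21 and 0.66 in KD. Ly6a was higher relative to the claudin in each B6 KD library than in any B6 control, and the D2 groups overlapped. Ly6c1 to Cldn5 had narrower ranges, 0.77 to 0.96 in B6 Ctrl and 0.91 to 1.03 in B6 KD, which overlapped.

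Flt1 was also set against Kdr, the gene of VEGF receptor 2, which was at 517, 782 and 633 in B6 Ctrl and at 965, 1069 and 1025 in B6 KD. The Flt1 to Kdr ratio was 5.36, 3.90 and 4.17 in B6 Ctrl and 2.85, 2.45 and 2.60 in B6 KD. The 2 groups were far apart, and B6 KD lay within the range of D2 Ctrl, 1.91 to 3.42. In D2 KD the ratio was 1.48, 2.74 and 2.50. The log2 fold change of Kdr in B6 was 0.69 ± 0.20 (edgeR adjusted p = 0.0812).

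**Figure D3:**
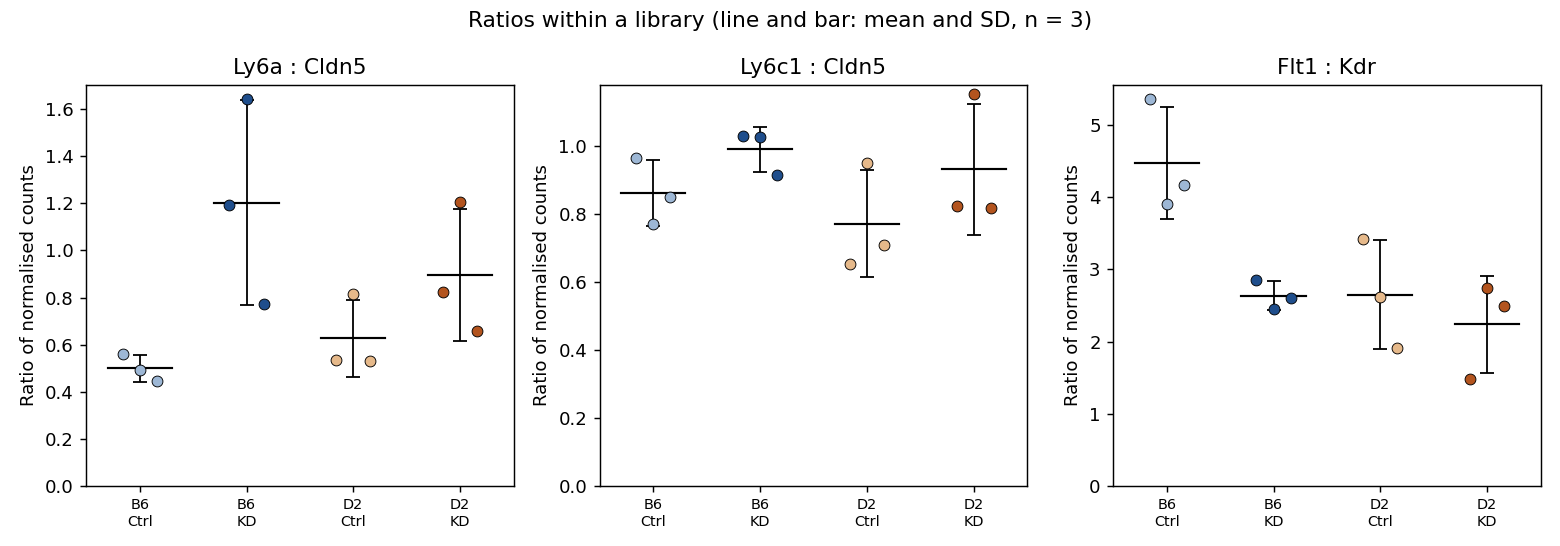
Ratios of normalised counts within each library (vertical axes, starting at 0) for Ly6a to Cldn5, Ly6c1 to Cldn5 and Flt1 to Kdr, with the mean and SD of each group (n = 3). The B6 KD points of Ly6a to Cldn5 (0.77 to 1.64) lie above B6 Ctrl (0.45 to 0.56), those of Flt1 to Kdr (2.45 to 2.85) lie below (3.90 to 5.36), and the groups of Ly6c1 to Cldn5 overlap.

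The 5 genes most like Ly6a over the 12 libraries, by Pearson's r of log2 values, were Ly6e (0.963), Herc6 (0.960), Helz2 (0.956), Samd9l (0.951) and Serpinb9 (0.951). Those most like Cldn5 were Ftl1 (0.921), Cmtm3 (0.920), AI467606 (0.917), Fmnl3 (0.913) and Rps9 (0.912). No gene was among the nearest 5 of both Ly6a and Cldn5. The points share group and library, so these values are a description.

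Other genes of the barrier were read from lists around the 10. Of 11 tested partners in junction and adhesion, 0 passed the test in B6 or D2, with medians of 0.35 and 0.03 on the log2 scale. Their examples, chosen after the values were seen, were Esam (379, 448 and 391 in B6 Ctrl, and 570, 470 and 526 in B6 KD) and Jam2 (1361, 1399 and 1370, and 1987, 1742 and 1446), which code for adhesion proteins of the endothelial junction and did not overlap between these groups. Of 20 further endothelial identity genes 0 passed in either strain, and 19 estimates were above 0 in B6 against 13 in D2, with medians of 0.41 and 0.04. The B6 median of these genes was the same as that of the 10 described here, to the second decimal.

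Of 15 further barrier transporters, 0 passed the knockdown test in B6 or D2, with medians of 0.25 and 0.10 on the log2 scale. In B6, 3 had all KD libraries above all Ctrl libraries and 1, Slc6a6, had them below. In D2, 2 had them above and 1, Slc19a3, below. Over all genes the shares were 12.6% above and 16.2% below in B6, and 2.99% and 3.06% in D2. Slc38a5, a glutamine carrier named here after its values were seen, had non-overlapping groups in both strains. It was at 75, 115 and 69 in B6 Ctrl and at 248, 376 and 199 in B6 KD (1.69 ± 0.53, edgeR adjusted p = 0.103). In D2 it was at 77, 53 and 73 in Ctrl and at 179, 555 and 105 in KD (2.04 ± 0.54, edgeR adjusted p = 1). Slc16a1, the lactate carrier MCT1 and also named after its values were seen, was at 1777, 2004 and 1990 in B6 Ctrl and at 3009, 2950 and 3259 in B6 KD, with an edgeR adjusted p of 0.0505. It overlapped between the D2 groups, where its estimate was -0.06 ± 0.16.

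The VEGF and angiopoietin genes (12 tested) and the Wnt barrier genes (15 tested) had 0 calls in either strain. Wnt7a, a ligand that neural cells give to brain endothelium, had lower values in KD in both strains. It was at 523, 418 and 506 in B6 Ctrl against 253, 323 and 340 in B6 KD (-0.64 ± 0.16, edgeR adjusted p = 0.0567), and at 497, 562 and 466 in D2 Ctrl against 435, 323 and 441 in D2 KD. Markers of activated or leaky endothelium (13 tested) had 0 calls and a median of 0.94 in B6 and 0.27 in D2. Vcam1, the adhesion molecule that binds white blood cells, was at 1001, 2040 and 930 in B6 Ctrl and at 2214, 3462 and 2764 in B6 KD (1.11 ± 0.35, edgeR adjusted p = 0.102). Wnt7a and Vcam1 were also named after their values were seen.

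In the Ly6 family, 3 of 9 tested genes rose in B6 (against 1.76% of all genes tested) and 0 in D2 (against 0%). Besides Ly6a these were Ly6e, at 4692, 4684 and 4153 in Ctrl and at 9714, 9157 and 5520 in KD (0.87 ± 0.19, edgeR adjusted p = 0.0459), and Ly6k, at 0 to 1 in Ctrl and 8 to 9 in KD (3.61 ± 0.72, edgeR adjusted p = 0.0379). The Ly6k values lay near the floor of the counts. Ly6c2, the copy of Ly6c1 that monocytes express, was at 3, 30 and 1 in B6 Ctrl and at 86, 182 and 10 in B6 KD (edgeR adjusted p = 0.185). The interferon response list was read beside Ly6a. Of its 25 genes, 23 rose in B6, against 1.76% of all genes tested, and 0 in D2. The medians of the list were 3.55 in B6 and 1.31 in D2. Zbp1 and Ifi44 had the highest estimates in B6, 4.92 and 4.88. The summed normalised count of the 25 genes was 6101, 6403 and 5344 in B6 Ctrl against 50065, 64803 and 24244 in B6 KD. The D2 sums were 6306, 6033 and 12852 in Ctrl against 20239, 26121 and 7361 in KD. B6 KD 3 was the lowest B6 KD library and the library labelled D2 KD 3 the lowest D2 KD library for both Ly6a and this sum. The part of the interferon genes in the Ly6a result was not tested.

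Of the 12 microglial markers, Itgam alone rose in B6 (edgeR adjusted p = 0.0421), against 1.76% of all genes tested. In B6 KD, 10 of 12 had non-overlapping higher values, as did 12.6% of all genes. The summed level of the 12 was 15553 to 17832 in B6 Ctrl and 21780 to 36386 in B6 KD. In D2, 0 were higher in this way and 2, P2ry12 and Sall1, were lower, as were 3.06% of all genes. Of the 9 astrocyte markers, only Aqp4, the water channel of the end-feet on vessels, passed the test in B6. It rose from 4548, 5196 and 5748 to 10677, 11966 and 12428 (2.26-fold, edgeR adjusted p = 0.0326). The astrocyte list was split in direction, with 5 of 9 estimates above 0 in B6 and a median of 0.10. In B6 KD, 3 of its genes, Aqp4 among them, had non-overlapping higher values and 2 had lower ones. Over all genes, 12.6% were higher and 16.2% lower in this way. In D2 the Aqp4 groups overlapped, with -0.22 ± 0.19. The lists of pericytes and smooth muscle, fibroblasts, choroid plexus, blood, lymphocytes, neurons and oligodendrocytes had 0 calls in B6 or D2. Only 4 of the 12 lymphocyte genes and 8 of the 11 blood genes were tested. By edgeR, 4 lymphocyte estimates were above 0 in B6 (2 at an unadjusted p under 0.05) and 1 in D2. The 12 lymphocyte genes summed to 83 to 115 normalised counts in B6 Ctrl and 124 to 408 in B6 KD, without overlap. Their D2 sums overlapped, at 65 to 91 in Ctrl and 71 to 106 in KD. The defining markers Pdgfrb of the pericyte list (923 to 1460 over all libraries) and Hba-a1 of the blood list (637 to 7969) were present in each library. The T cell marker Cd3e was at 0 in 4 libraries and at 40.6 at most. The part of these cell types in the members' values was not tested. No gene at all was called in B6 by edgeR without B6 Ctrl 1, B6 Ctrl 3, B6 KD 1, B6 KD 2 or D2 Ctrl 1. Without any other single library, 9 to 25 of the 25 interferon genes were called, against 0.28% to 4.94% of all genes.

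**Figure D4:**
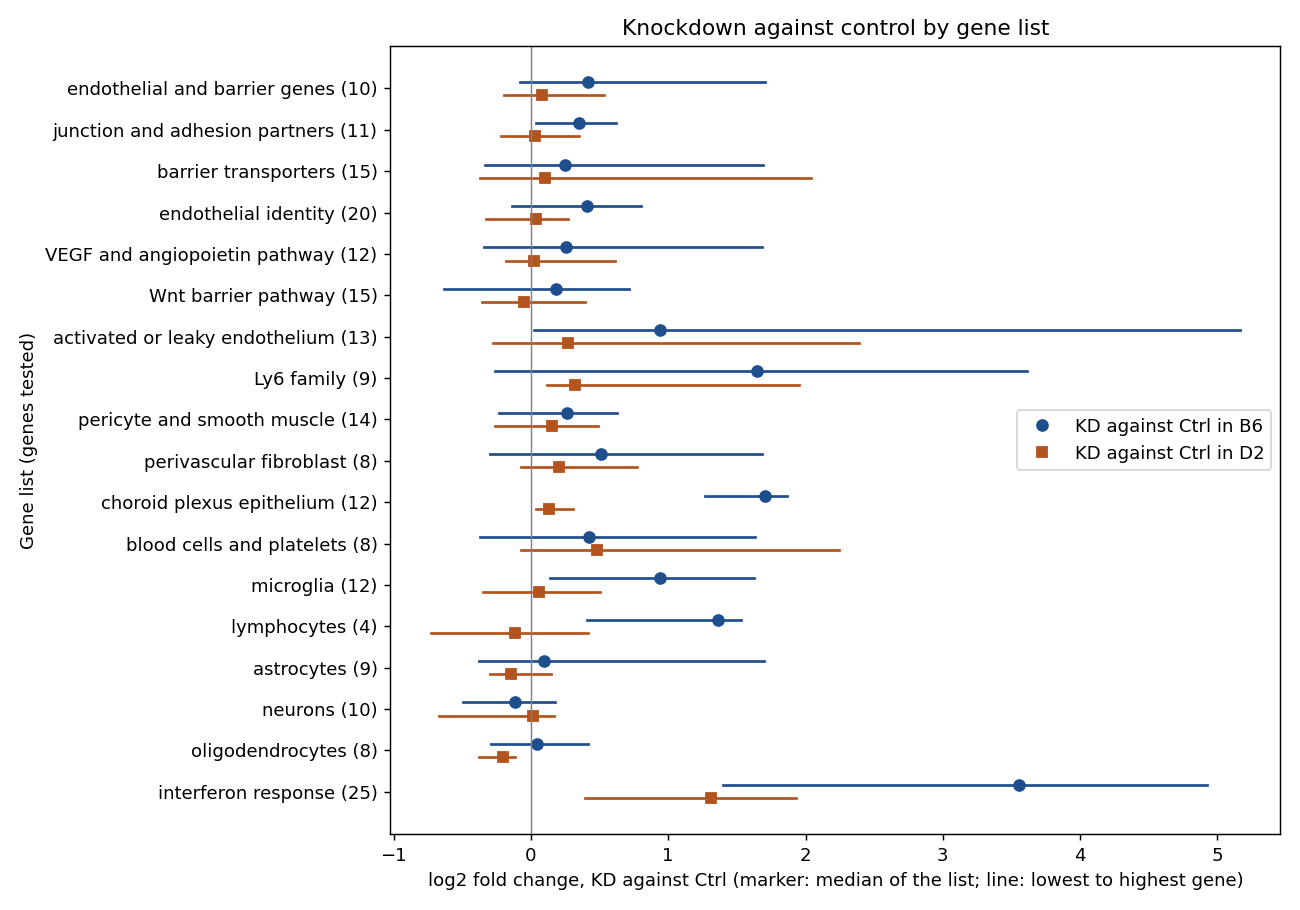
Log2 fold changes of KD against Ctrl (horizontal axis) by gene list in B6 (blue circles) and D2 (orange squares). The marker is the list's median and the line runs from its lowest to its highest gene. The 10 endothelial and barrier genes have medians of 0.41 and 0.08, near those of the endothelial identity list (0.41 and 0.04), and the interferon response list has 3.55 and 1.31.

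Between the strains, averaged over treatments, 3 of 20 identity genes, 2 of 11 junction partners and 2 of 15 further transporters passed the test, against the 21.3% of all genes given above for this comparison. Of the identity list, Erg (-0.73 ± 0.14, edgeR adjusted p = 0.00279) and Egfl7 (-0.47 ± 0.09, edgeR adjusted p = 0.00267) were lower and Mmrn2 (0.51 ± 0.12, edgeR adjusted p = 0.00766) higher in D2. Erg is an ETS factor of endothelial cells. It was at 159 to 209 in B6 and at 93 to 145 in D2, without overlap, as for Flt1 and for 8.74% of all genes. A link between Erg and Flt1 was not tested. Plvap, which marks fenestrated endothelium such as that of the choroid plexus, was higher in D2 (0.96 ± 0.21, edgeR adjusted p = 0.00545), and the pericyte gene Rgs5 was lower (-1.10 ± 0.12, edgeR adjusted p = 5.6e-05). Of the transporters, the efflux pump gene Abcg2 was lower (-0.33 ± 0.07) and the thiamine carrier gene Slc19a3 higher (0.51 ± 0.13) in D2, at edgeR adjusted p of 0.00589 and 0.0168. Of the junction partners, Marveld2, the gene of tricellulin (1.18 ± 0.22), and Cd99l2, the gene of an adhesion protein (0.34 ± 0.09), were higher in D2, at edgeR adjusted p of 0.00204 and 0.0212.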

How the data were processed

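Hippocampal mRNA was sequenced in 12 male mice. The authors aligned B6 reads to the B6 genome and D2 reads to the D2 genome and quantified genes with RSEM 1.2.12 and bowtie2 2.2.0, and the submitters' processing notes name GRCm38 and mm10. Because of a barcode mix-up the libraries were run on the sequencer again and most samples combine 2 runs. Which do not is not given in the sources used here. The deposited expected counts are these RSEM estimates, not normalised. A second deposited table holds a signal, the authors' normalised count from DESeq2, in which 100% of 266784 values gave whole reads (within 0.01) after multiplication by 1 factor per library. In the gene names, 27 symbols had become dates and were restored from their identifiers.

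Expected counts of 22236 genes were rounded, filtered with filterByExpr (15854 genes kept) and tested by edgeR's quasi-likelihood method (version 4.0.16, R 4.3.3, TMM, robust) with a mean for each of the 4 groups. The 6 comparisons were KD against Ctrl in each strain and on average, their interaction, and D2 against B6 in Ctrl and on average. Benjamini-Hochberg adjustment ran over all genes, and a gene was called at an adjusted p below 0.05. Standard errors are approximate, each being the log2 fold change over √F. Levels and ratios used the normalised counts, and likeness used log2(CPM + 1) over genes whose mean CPM reached 1. Alternatives were RLE factors, no filter, DESeq2 1.42.0, limma-voom (limma 3.58.1), the newer quasi-likelihood method, a covariate for total count or choroid plexus score, and each library left out. Fits on the recovered whole reads, and overlap without the library labelled D2 KD 3, were added after seeing the data. The steps were tested on simulated data.

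The members and the 17 companion lists were chosen with earlier results of these data known, and so support no independent claim. Named were all members, Hp1bp3, list genes called after knockdown (with more than 4, the 2 largest rises and falls) and the 5 genes most like Cldn5 and Ly6a. The defining marker, the first gene of its list, was given for choroid plexus, pericytes, blood and lymphocytes. It was not given for fibroblasts, microglia, neurons and oligodendrocytes. Other genes are said to be chosen after their values were seen, including those that differed between strains. Replicate numbers follow the order of deposit and pair nothing. Each library was from 1 mouse per the labels, and no 2 libraries of a group agreed within sampling noise.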

Additional observations from a re-analysis of the deposited data

How the results depend on the processing

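No paired analysis was possible because replicate numbers follow the order of deposit and link no animals. In B6, where edgeR called 1 of the 10 genes after knockdown, DESeq2 called 2, the fits with total count or choroid plexus score as a covariate called 0, and fits leaving out 1 library called 0 to 2. Averaged over strains the count was 1 in DESeq2 and 0 to 1 with a library left out, against 0. For D2 against B6 in Ctrl it was 1 in DESeq2 and 0 to 1 with a library left out, against 0, and averaged over treatments 1 to 2, against 2. In D2 and for the interaction 0 members were called in every fit. Over all genes, B6 calls rose from 418 to 1688 in DESeq2 (915 higher, 773 lower, against 279 and 139) and to 607 by the newer quasi-likelihood method, were 0 with either covariate, and ran from 0 to 790 with a library left out. Averaged over strains, 1241 genes were called by DESeq2 and 15 by the newer method, against 0, and 798 without the library labelled D2 KD 3.

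Some estimates near 0 changed sign, none of them called, and the cause was not tested. With the total count as a covariate Abcb1a averaged over strains was 0.0091 and Slc2a1 in D2 was -0.029. With a library left out, Abcb1a ran from -0.174 to 0.0615 averaged over strains, from -0.199 to 0.271 in B6 and from -0.419 to 0.0501 for the interaction, and Mfsd2a from -0.058 to 0.185 on average and from -0.383 to 0.0681 in B6. In D2, Pecam1 ran from -0.0186 to 0.183, Cdh5 from -0.219 to 0.0564, Slc2a1 from -0.0863 to 0.111 and Ly6c1 from -0.0729 to 0.320. For the interaction, Flt1 ran from -0.308 to 0.0099 and Vwf from -0.545 to 0.152. With 3 libraries a group and library totals from 18213084 to 39420219 expected counts, the standard errors of the members' knockdown estimates within a strain ran from 0.14 to 0.33, which limits what these libraries can detect.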
